A study of Mus musculus with 2 samples.

Results

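The genes of the proteasome, the cell's main protease for ubiquitin-tagged proteins, were compared between naive CD4 and naive CD8 T cells. Members were the gene symbols beginning with Psm, a letter from a to g and a digit. This rule took 49 of the 23167 symbols in the deposited tables. It gathered the subunits of the 20S core particle and most of those of the 19S regulatory particle. It also took the other activators and inhibitors of the core and most dedicated assembly chaperones. Adrm1 and Shfm1, of the regulatory particle, and the chaperone Pomp have symbols outside the rule. 1 of the 49, Psmc3ip, shares only the first letters: it encodes a meiotic recombination factor and is no proteasome gene.

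The study profiled resting T cells of mice with a Foxp3-GFP reporter, in which regulatory T cells are marked by green fluorescent protein, on a C57BL/6 background. Both populations were taken by flow sorting out of spleen and lymph nodes as cells with high CD62L and low CD44 that lacked CD25 and Foxp3-GFP, and they differ in the lineage, CD4 or CD8. The labels give no treatment, age, sex or number of mice. There was 1 library of ribosomal-RNA-depleted RNA per cell type, so no difference reported here has a replicate check and none was tested.

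The core particle is a barrel of alpha rings around beta rings, and its proteolytic sites sit on 3 of the beta subunits, Psmb5, Psmb6 and Psmb7. In cells of the immune system, and in other cells under interferon, Psmb8, Psmb9 and Psmb10 take the places of those subunits in newly built particles, which are then called immunoproteasomes and favour peptides that fit major histocompatibility complex (MHC) class I. The regulatory particle caps the barrel: its ATPase ring unfolds substrates, its base and lid bind and remove ubiquitin.

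Levels are in RPKM, reads per kilobase of gene and per 1000000 reads, so they can be set side by side between genes. The totals behind the values were 24741945 reads for CD4 and 23853921 for CD8, and a compared gene had a median of 958 and 898 reads. The label of each library held against its markers: the summed RPKM of Cd4, Zbtb7b and Cd40lg was 389 in CD4 and 11.1 in CD8, that of Cd8a and Cd8b1 was 23.9 and 1306, and that of the 3 T cell receptor complex genes Cd3d, Cd3e and Cd3g was 991 and 1058. Most markers of other cells were low. The summed RPKM of 4 B cell genes was 3.39 in CD4 and 29.6 in CD8. In CD8 nearly all of it was Cd79b, at 28.8 RPKM (820 reads), above the median compared gene of that library at 13.4. The sum of 5 myeloid and dendritic genes was 2.22 and 3.45 with Cd14 at 0 in both, and all 3 erythroid genes were at 0 in both. Of the myeloid and dendritic genes, Itgax stood at 0.263 RPKM in CD4 (26 reads) and 1.07 in CD8 (102 reads). Lyz2 was also higher in CD8, and Csf1r and Flt3 in CD4, each with at most 54 reads in a library. The 3 NK cell genes summed to 7.99 and 107, nearly all of it Klrd1, which CD8 T cells also express. Ncr1 stood at 0.111 and 0 RPKM, and Klrb1c at 0.031 RPKM in CD4 (2 reads) and 1.36 in CD8 (85 reads). Their part in the differences described here was not tested. In bulk RNA, fewer cells of a type and less RNA per cell cannot be told apart.

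Of the 49 members, 47 reached 1 RPKM in at least 1 library and were compared, as were 10228 of all genes. Psma8, an alpha subunit known from testis, was listed at 0 in both libraries. Psmb11, the catalytic subunit of the thymoproteasome of cortical thymic epithelium, had 0.219 RPKM in CD4 (23 reads) and 0.395 in CD8 (40 reads) and stayed under the filter. The compared members were abundant. Their median was 52.6 RPKM in CD4 and 63.4 in CD8, against 14.1 and 13.4 over all compared genes. Psmc3ip was the lowest of them, at 3.23 RPKM in CD4 (77 reads) and 2.65 in CD8 (61 reads). Across the 47 members the log2 RPKM of the 2 libraries had a Pearson correlation of 0.98 and a Spearman correlation of 0.98, a description over genes of the same 2 libraries. The order of the members was thus nearly the same in both cell types.

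**Figure D1:**
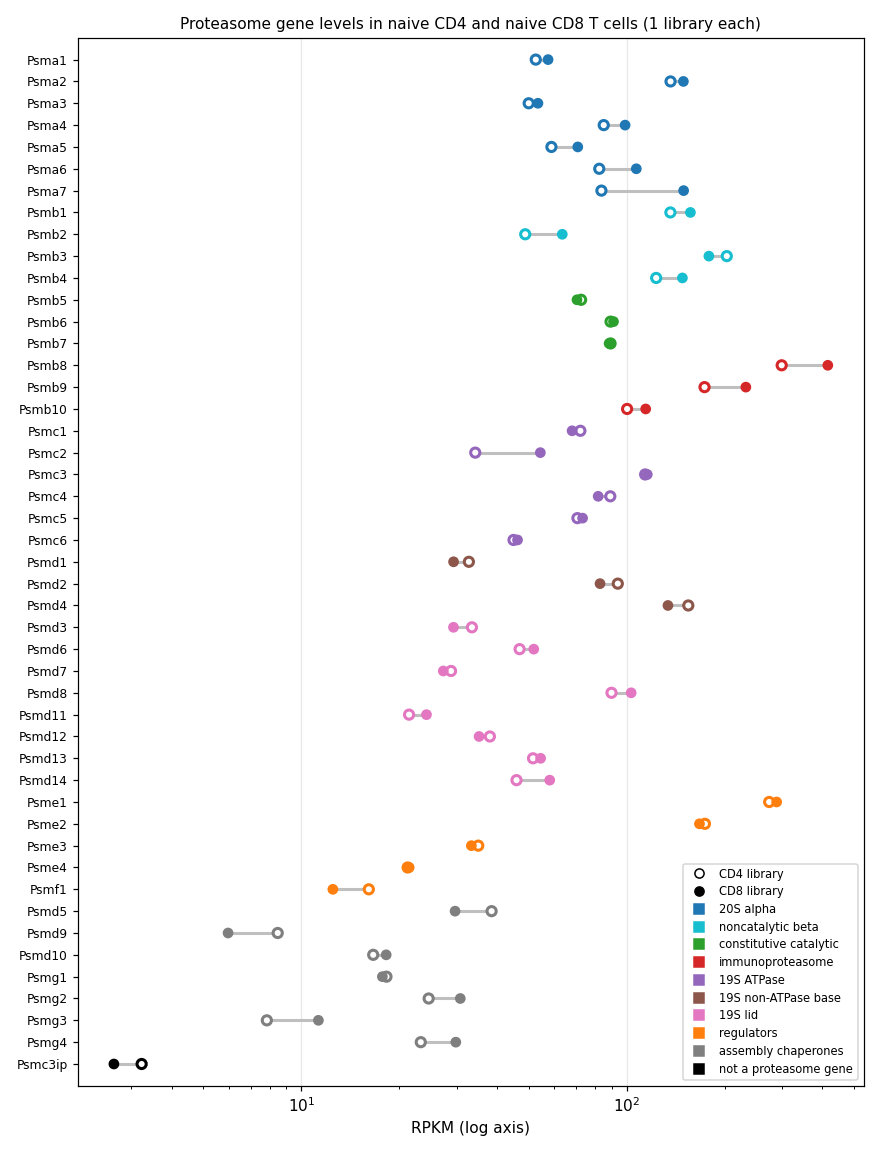
RPKM of each compared member (log axis) in the CD4 library (open circles) and the CD8 library (filled circles), coloured by place in the complex, 1 library each. Psmb8 is the farthest right in both libraries, and the widest gaps among the members of the core and regulatory particles are those of Psma7 and Psmc2.

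The plot of levels shows members of the core particle mostly to the right of the regulatory particle. The 17 compared core subunits had a median of 89.2 RPKM in CD4 and 107 in CD8. The 17 members of the regulatory particle had 46.9 and 54.4 RPKM. Assembly chaperones were lower, with a median of 18.3 RPKM in CD4 and 18.2 in CD8. Within the core the spread from the lowest to the highest subunit was 6.14-fold in CD4 and 7.78-fold in CD8, counting the immunoproteasome subunits and those they replace.

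Differences between the libraries are given as log2((CD4 RPKM + 1)/(CD8 RPKM + 1)), above 0 where CD4 was higher. The 47 members had a median of -0.08 with a range of -0.83 to 0.44, whereas the median of all compared genes was 0.08. None of the 47 was at least 2-fold apart, while 5.48% of compared genes were, 2.41% higher in CD4 and 3.07% higher in CD8. 18 members stood above 0 and 29 below, against 59.5% above and 40.5% below among all compared genes. When each library was rescaled to the same sum of RPKM, the median of all genes moved up by 0.21 and that of the members to 0.14, with 34 members above 0 and 13 below, against 77% and 23% of compared genes. Relative to the median of all genes the members stood at -0.16 as deposited and at -0.15 after that rescaling, and 35 of 47 lay under it in both.

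Whole reads could be recovered from the RPKM, and each ratio between libraries has an exact (Clopper-Pearson) 95% interval from them. These intervals cover counting error only, since reads amplified by PCR are not independent molecules, and they compare these 2 libraries and not the cell types. The interval lay on the CD8 side of 1 for 22 of the 47 members, against 27.1% of compared genes. It lay on the CD4 side for 11, against 45% of compared genes, and it held 1 for 14. Set against the ratio of the median gene instead of 1, it lay on the CD4 side for 6 and on the CD8 side for 29, against 35.7% and 35% of compared genes.

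**Figure D2:**
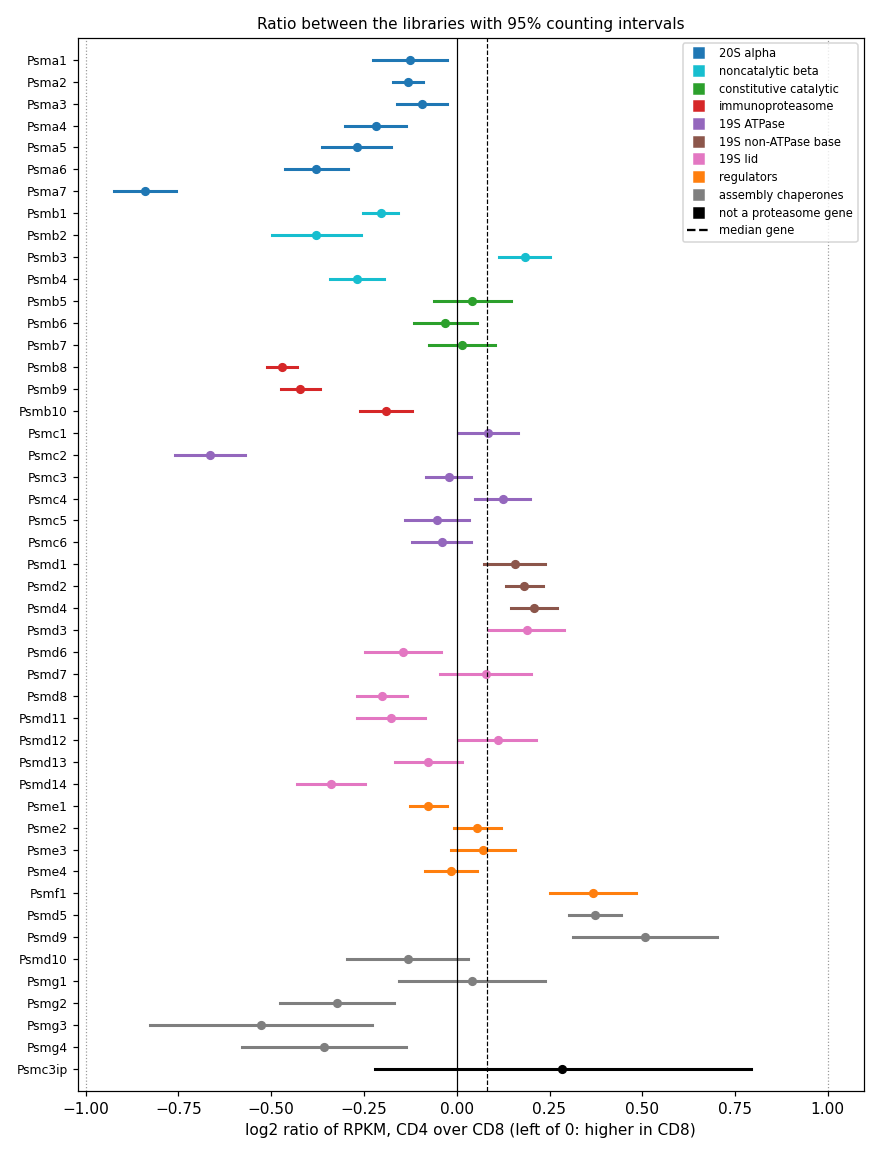
Log2 ratio of RPKM, CD4 over CD8, for each compared member without a pseudocount, with its 95% counting interval from 1 library each; 0 is the solid line, the median gene the dashed line and 2-fold the dotted lines. As deposited, all 7 alpha subunits and all 3 immunoproteasome subunits lie left of 0 (4 and 2 of them after rescaling to equal sums), and the constitutive catalytic subunits lie on it.

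The plot of ratios orders the members by place in the complex and shows the core particle mostly left of 0 as deposited, where 13 of the 22 members with an interval on the CD8 side belonged to it. Of the 17 core subunits, 14 stood below 0, with a median of -0.20. Of the 17 members of the regulatory particle, 9 stood below 0 with a median of -0.02. Of these 17, 5 had an interval on the CD8 side and 7 on the CD4 side. The difference between these medians was not tested.

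By RPKM the immunoproteasome subunits were the most abundant catalytic subunits in both libraries. As deposited all 3 were higher in the CD8 library, though Psmb10 no longer was after rescaling to equal sums. Psmb8, the immunoproteasome's chymotrypsin-like subunit, was the highest member of all, at 299.7 RPKM in CD4 (9024 reads) and 415 in CD8 (12060 reads). It ranked 169th among all symbols in CD4 and 137th in CD8. The ratio was 1.39-fold toward CD8 (95% interval 1.35 to 1.42). Psmb9, the subunit that takes the place of Psmb6, had 174 RPKM in CD4 (5154 reads) and 233 in CD8 (6657 reads), 1.34-fold toward CD8 (1.29 to 1.39). Psmb10, the trypsin-like subunit, had 100.3 RPKM in CD4 (3133 reads) and 114 in CD8 (3445 reads), 1.14-fold toward CD8 (1.09 to 1.20). On the log2 scale the group's median was -0.42 with a range of -0.47 to -0.19. After rescaling to equal sums Psmb8 and Psmb9 kept their direction, at -0.26 and -0.21, whereas Psmb10 moved to 0.02.

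The constitutive subunits that they replace were nearly level. Psmb5, the chymotrypsin-like site of the standard particle, had 72.5 RPKM in CD4 (1556 reads) and 70.4 in CD8 (1457 reads). Psmb6, the caspase-like site, had 89.2 RPKM in CD4 (2274 reads) and 91.1 in CD8 (2239 reads). Psmb7, the trypsin-like site, had 89.2 RPKM in CD4 (2122 reads) and 88.3 in CD8 (2025 reads). The counting intervals of the CD4 to CD8 ratio held 1 for all 3, at 0.958 to 1.11, 0.923 to 1.04 and 0.950 to 1.07. Their log2 differences ran from -0.03 to 0.04 with a median of 0.01, which became 0.23 after rescaling to equal sums.

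The ratio of each immunoproteasome subunit to its counterpart within a library does not depend on how the libraries are scaled. Psmb8 stood at 4.14 times Psmb5 in CD4 (95% interval 3.92 to 4.37) and at 5.90 times in CD8 (5.59 to 6.24). The ratio in CD8 was 1.43 times that in CD4 (1.32 to 1.54). Psmb9 stood at 1.95 times Psmb6 in CD4 (1.85 to 2.04) and at 2.55 times in CD8 (2.43 to 2.68), and the ratio in CD8 was 1.31 times that in CD4 (1.22 to 1.41). Psmb10 stood at 1.12 times Psmb7 in CD4 (1.06 to 1.19) and at 1.30 times in CD8 (1.23 to 1.37), with 1.15 times between them (1.07 to 1.25). The immunoproteasome gene thus made up 80.5% of the RPKM of the first pair in CD4 and 85.5% in CD8, 66.0% and 71.8% of the next, and 52.9% and 56.4% of the last. All 3 pairs differed between the libraries by more than counting error, and the interval of the change for Psmb9 over Psmb6 overlapped those of both other pairs. Psmb5, Psmb6 and Psmb7 may share reads with pseudogenes or copies, and the part of this in the ratios and shares was not tested. Levels of messenger RNA are not amounts of assembled particle.

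**Figure D3:**
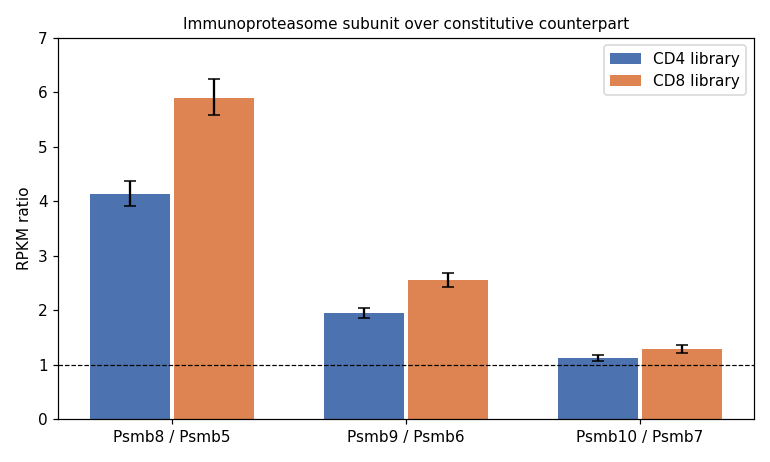
RPKM of each immunoproteasome subunit divided by that of its constitutive counterpart in the CD4 and CD8 libraries (1 library each); bars start at 0, whiskers are 95% counting intervals and the dashed line marks equal levels. Every ratio is above 1, and within each pair the CD8 bar is the taller, from 5.90 against 4.14 for Psmb8 over Psmb5 to 1.30 against 1.12 for Psmb10 over Psmb7.

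The bars of the paired ratios do not overlap within their intervals in any pair. Psmb8 and Psmb9 kept nearly the same proportion to each other, with a ratio of 1.73 in CD4 and 1.79 in CD8, and the interval for the change between libraries held 1 (0.988 to 1.08). Psmb8 over Psmb10 was 2.99 in CD4 and 3.63 in CD8, 1.22 times as high in CD8 (1.15 to 1.29).

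Psmb9 and Psmb8 lie in the class II region of the MHC on chromosome 17, each beside a gene of the TAP peptide transporter, in the order Psmb9, Tap1, Psmb8, Tap2 in RefSeq. Psmb9 and Tap1 begin back to back on opposite strands. The 225 bases between their starts are shown because these neighbours stood on opposite sides in the comparison, with the promoter of Psmb8, the highest member, under them. Sequences are from RefSeq (GRCm38.p6). Both are on the plus strand, at chr17:34187331-34187555 and chr17:34197945-34198194, the latter being the 250 bases before the start of Psmb8. Capitals mark a CCAAT box and a GC box (GGGCGG or its complement) in the shared region, and in Psmb8 a match to the interferon-gamma-activated element TTCNNNGAA, 97 bases before the start.
Psmb9 to Tap1: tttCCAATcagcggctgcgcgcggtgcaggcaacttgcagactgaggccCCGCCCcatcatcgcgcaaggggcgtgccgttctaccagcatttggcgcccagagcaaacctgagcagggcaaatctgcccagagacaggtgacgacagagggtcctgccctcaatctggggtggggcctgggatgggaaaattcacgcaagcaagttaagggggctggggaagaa
Psmb8: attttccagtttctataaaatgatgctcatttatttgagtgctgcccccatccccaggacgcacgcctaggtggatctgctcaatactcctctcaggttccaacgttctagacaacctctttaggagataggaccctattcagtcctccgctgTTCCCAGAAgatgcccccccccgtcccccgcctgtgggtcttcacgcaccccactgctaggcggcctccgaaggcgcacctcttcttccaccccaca

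Tap1, named for its place beside Psmb9 after its values were seen, had 155 RPKM in CD4 (11266 reads) and 121 in CD8 (8497 reads), 1.28-fold toward CD4 (1.24 to 1.31), where Psmb9 was toward CD8. Psmb9 over Tap1 was 1.12 in CD4 and 1.92 in CD8, so that the ratio was 1.71 times as high in CD8 (1.64 to 1.79). Tap2, named for the same reason, had 114 RPKM in CD4 and 111 in CD8. Psmb8 over Tap2 was 2.64 in CD4 and 3.75 in CD8, 1.42 times as high in CD8 (1.36 to 1.48). The recovered length of Tap1 was 2939 bases and that of Psmb9 1200.

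All 7 compared alpha subunits, which form the outer rings and the gate of the barrel, were lower in CD4 than in CD8 as deposited, and 4 of them, Psma4 to Psma7, still after rescaling to equal sums. Their median log2 difference was -0.22 with a range of -0.83 to -0.09, all 7 intervals lay on the CD8 side, and the rescaled median was -0.01. As deposited Psma7 had the largest difference of all members, with 83.7 RPKM in CD4 (1809 reads) and 149.7 in CD8 (3121 reads). Its ratio was 1.79-fold toward CD8 (95% interval 1.69 to 1.90), and its log2 difference of -0.83 was the member value nearest to the 2-fold line. After rescaling to equal sums Psma7 stood at -0.62, and Psmd9 was farther from level at 0.67. Psma6 had 82.4 RPKM in CD4 and 107 in CD8. Psma5 had 58.7 and 70.8, Psma4 had 85.0 and 98.9, and Psma2 had 136 and 149. Psma1 at 52.6 and 57.3 and Psma3 at 50.0 and 53.4 were the nearest to level. In each library the alpha genes spanned less than the whole core, 2.73-fold in CD4 and 2.80-fold in CD8.

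The promoter of Psma7 is shown with that of Psmc2, an ATPase gene with the next largest difference as deposited. After rescaling to equal sums Psmc2 stood at -0.45, and Psmd9, Psmd5 and Psmf1 were also farther from level. They are the 250 bases before each start in RefSeq (GRCm38.p6): chr2:180042465-180042714 on the minus strand for Psma7 and chr5:21785025-21785274 on the plus strand for Psmc2. Capitals mark GC boxes and a CCAAT box in Psma7, where 2 of 5 GC boxes overlap, and in Psmc2 a CCAAT box 28 bases and an Ets site (CCGGAAGT or its complement) 85 bases before the start.
Psma7: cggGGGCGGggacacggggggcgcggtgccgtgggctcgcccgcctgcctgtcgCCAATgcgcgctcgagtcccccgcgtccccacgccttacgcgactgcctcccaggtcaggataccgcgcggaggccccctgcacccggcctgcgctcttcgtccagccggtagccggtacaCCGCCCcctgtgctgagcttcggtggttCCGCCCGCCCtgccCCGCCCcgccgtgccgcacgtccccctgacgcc
Psmc2: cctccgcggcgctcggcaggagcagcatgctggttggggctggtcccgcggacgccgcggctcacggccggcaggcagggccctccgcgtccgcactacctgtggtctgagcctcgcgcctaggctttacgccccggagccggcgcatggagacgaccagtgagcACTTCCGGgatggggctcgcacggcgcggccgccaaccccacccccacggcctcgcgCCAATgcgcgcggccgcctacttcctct

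Among the 4 noncatalytic beta subunits, structural parts of the inner rings, 3 were higher in CD8 and 1 in CD4 as deposited, and after rescaling to equal sums Psmb2 and Psmb4 alone were higher in CD8. The group's median was -0.23 on the log2 scale, with a range of -0.37 to 0.18, and -0.02 when rescaled. Psmb2 had 48.8 RPKM in CD4 and 63.4 in CD8, Psmb4 had 123 and 148, and Psmb1 had 136 and 157. Psmb3 went the other way. It was the fourth highest member by mean level, at 203 RPKM in CD4 (3645 reads) and 179 in CD8 (3096 reads), 1.14-fold toward CD4 (1.08 to 1.19). No other compared core subunit had an interval on the CD4 side.

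The 6 ATPases of the regulatory particle were close to level except Psmc2. Psmc2 had 34.2 RPKM in CD4 (1499 reads) and 54.3 in CD8 (2291 reads), 1.59-fold toward CD8 (1.48 to 1.69), a log2 difference of -0.65. It was the lowest of the 6 in CD4 and stood above Psmc6 in CD8. Psmc4, with 89.1 and 81.8 RPKM, and Psmc1, with 72.1 and 68.0, had intervals on the CD4 side, that of Psmc1 by a narrow margin. Psmc3 at 114 and 116, Psmc5 at 70.6 and 73.2 and Psmc6 at 44.9 and 46.2 RPKM had intervals that held 1. The group's median was -0.03 as deposited and 0.18 after rescaling to equal sums.

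The non-ATPase subunits of the base carry ubiquitin-binding sites and hold the ring to the lid. The 3 that the rule took were all higher in CD4, with a median of 0.18 that became 0.39 after rescaling. Psmd4, a ubiquitin receptor, had 155 RPKM in CD4 (4755 reads) and 134 in CD8 (3969 reads), 1.16-fold toward CD4 (1.11 to 1.21). Psmd2, the large scaffold that docks shuttle proteins, had 93.9 RPKM in CD4 and 82.8 in CD8. Psmd1 had 32.7 and 29.4. The log2 differences of these 3 lay between 0.15 and 0.21. Adrm1, a base subunit whose symbol lies outside the rule, had 30.2 RPKM in CD4 and 28.5 in CD8. Its interval for CD4 over CD8, 0.969 to 1.16, held 1.

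The 8 lid subunits that the rule took were mixed, with 3 above 0 and 5 below as deposited. After rescaling to equal sums 1 of them, Psmd14, was below. Their median was -0.11 with a range of -0.33 to 0.18, and 0.10 when rescaled. Psmd14, the deubiquitinase that cuts ubiquitin chains off substrates, had 45.9 RPKM in CD4 and 58.0 in CD8, the largest difference of these 8 as deposited. Shfm1, a lid subunit outside the rule, had a larger one toward CD8, 1.73-fold, and is described with the partners below. Psmd8 at 89.9 and 103, Psmd11 at 21.4 and 24.2, Psmd6 at 46.9 and 51.8 and Psmd13 at 51.6 and 54.4 RPKM were also lower in CD4 as deposited, and the interval of Psmd13 held 1. Psmd3 at 33.5 and 29.4, Psmd12 at 38.0 and 35.2 and Psmd7 at 28.8 and 27.3 RPKM were higher in CD4, and the interval of Psmd7 held 1.

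The activators that bind the core in place of the regulatory particle were nearly level. Psme1 and Psme2 together form the interferon-inducible activator PA28 and are neighbours on chromosome 14 with Emc9 between them. Psme1 was the next highest member after Psmb8, at 274 RPKM in CD4 (6556 reads) and 289 in CD8 (6664 reads), 1.05-fold toward CD8 (1.02 to 1.09). Psme2 had 174 RPKM in CD4 (4156 reads) and 167 in CD8 (3855 reads), with an interval of 0.995 to 1.09 for CD4 over CD8. Psme2 has a near-identical gene copy, Psme2b, in RefSeq and stood on 2 rows with identical values, so its level is uncertain. Psme1 over Psme2 was 1.58 in CD4 and 1.73 in CD8. Psme3, the nuclear homologue of that activator, had 35.0 RPKM in CD4 (2257 reads) and 33.3 in CD8 (2073 reads), with an interval of 0.988 to 1.11. Psme4, the large nuclear activator PA200, had 21.2 RPKM in CD4 (3358 reads) and 21.5 in CD8 (3273 reads), with an interval of 0.942 to 1.04. Psme1 and Psme4 changed direction after rescaling to equal sums, to 0.14 and 0.19 on the log2 scale.

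Psmf1, an inhibitor of the core particle in the test tube, had 16.1 RPKM in CD4 (1410 reads) and 12.5 in CD8 (1054 reads). It was 1.29-fold toward CD4 (1.19 to 1.40). The median of the 5 regulators was 0.06 as deposited, with 3 above 0 and 2 below, and 0.27 after rescaling to equal sums.

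Assembly chaperones held the 2 largest differences toward CD4 among the members as well as 1 of the largest toward CD8. Psmd9, a chaperone of the base, had 8.46 RPKM in CD4 (541 reads) and 5.95 in CD8 (367 reads), 1.42-fold toward CD4 (1.24 to 1.63). Psmd5, another base chaperone, had 38.4 RPKM in CD4 (3866 reads) and 29.7 in CD8 (2878 reads), 1.30-fold toward CD4 (1.23 to 1.36). The remaining base chaperone, Psmd10 (gankyrin), had 16.6 and 18.2 RPKM with an interval that held 1. Psmg3, a chaperone of the core, was the lowest proteasome gene of the CD4 library that was compared, at 7.83 RPKM (162 reads) against 11.3 in CD8 (225 reads), 1.44-fold toward CD8 (1.17 to 1.77). The other core chaperones that the rule took were Psmg2 at 24.6 and 30.8 RPKM, Psmg4 at 23.3 and 29.8, and Psmg1 at 18.3 and 17.7. Psmg2 and Psmg4 had intervals on the CD8 side, and that of Psmg1 held 1. The median of the 7 was -0.13 as deposited and 0.08 after rescaling to equal sums.

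Gene length moved with the difference between the libraries, in the members and in all genes. Lengths here are those recovered from the deposited values. Among all compared genes the median log2 difference was -0.21 in the shortest of 10 equal classes by length (48 to 1017 bases), -0.02 in the next (1018 to 1507 bases) and 0.16 in the longest. Of the 47 members, 13 fell in the shortest class and 15 in the next, and their median length was 1288 bases against 2818 for all compared genes. Over the 47 members the Pearson correlation of log2 length with the log2 difference was 0.41 and the Spearman correlation 0.37, as a description across genes of 1 pair of libraries. Over all compared genes these were 0.14 and 0.20.

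**Figure D4:**
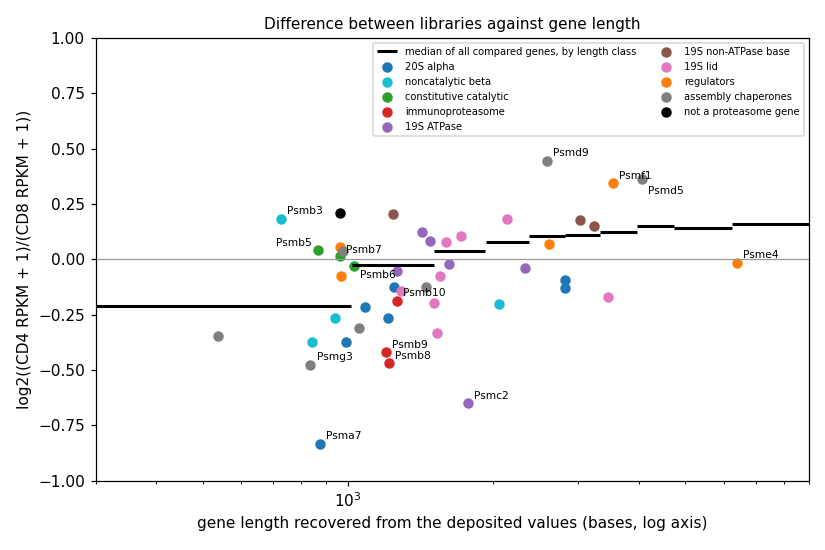
Log2 difference (RPKM + 1, CD4 over CD8, 1 library each) of each compared member against its recovered length (log axis), coloured by place in the complex; black bars are medians of all compared genes in 10 equal classes by length. Psma7, Psmc2, Psmb8 and Psmb9 lie well under the bar at their length, and Psmb3 and Psmd9 well above it.

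The plot against length shows members on both sides of the bars. Taken as a difference from the median gene of the same length class, an alternative added after seeing the data, 18 members were above and 29 below, with a median of -0.10. The alpha subunits stood at -0.20 with all 7 below and the immunoproteasome subunits at -0.40 with all 3 below. The constitutive catalytic subunits stood at 0.23 with 2 above and 1 below, Psmb6 at -0.006. Psmb5 and Psmb7 fell in the shortest class, and Psmb6 and the 3 immunoproteasome genes in the next, so the contrast depends in part on where the classes divide. Psma7 was at -0.62, Psmc2 at -0.69, Psmb8 at -0.45, Psmb9 at -0.40 and Psmb3 at 0.39. In each of the 3 catalytic pairs the immunoproteasome gene was the longer, at 1217 bases for Psmb8 against 868 for Psmb5, 1200 for Psmb9 against 1030 for Psmb6 and 1262 for Psmb10 against 961 for Psmb7. The part of length in the pair ratios was not tested.

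RefSeq promoter sequence was at hand for 41 of the 49 members, and short motifs were searched on both strands of the 250 bases before each start. The GC box (GGGCGG) was in 22 of 41 members (53.7%), in 65.1% of 7309 compared genes and in 35.4% of all 27025 promoters. The CCAAT box was in 15 members (36.6%), 41.2% of compared genes and 37.5% of all promoters. The Ets site (CCGGAAGT), bound by a family active in T cells, was in 5 members (12.2%), 7.77% of compared genes and 3.23% of all. Those 5 were Psmc1, Psmc2, Psmd6, Psmd12 and Psme4. It was thus in 4 of 14 subunits of the regulatory particle and 0 of 14 of the core.

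Of motifs tied to regulation of the proteasome, the antioxidant response element (TGACNNNGC), bound by Nfe2l1 and Nfe2l2, was in 5 members (12.2%), 14.3% of compared genes and 11.5% of all promoters. They were Psmb5, Psmb6, Psmc6, Psmd9 and Psmd12. The interferon-gamma-activated element (TTCNNNGAA) was in Psmb8 and Psmg1 (4.88%), 7.46% of compared genes and 8.13% of all. The interferon regulatory factor element (GAAA, any 2 bases, GAAA) was in Psmb3, Psmd4 and Psmd9 (7.32%), 3.26% of compared genes and 3.46% of all. Those letters were not in the Psmb8, Psmb9 or Psmb10 windows. The median GC content was 57.6% in the members and 60.0% in compared genes. These matches describe letters and not bound sites.

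Genes that work with the proteasome were spread much as all compared genes. Of 28 listed partners measured, 17 stood above 0 and 11 below with a median of 0.07 (23 and 5 after rescaling to equal sums), none was 2-fold apart, and intervals lay on the CD4 side for 13 and on the CD8 side for 8. Among all compared genes 59.5% stood above 0 (77% after rescaling), and intervals lay on the CD4 side for 45% and on the CD8 side for 27.1%. Of these partners, chosen after the values were seen, Pomp, the chaperone that completes the core, had 74.2 RPKM in CD4 and 113 in CD8, 1.53-fold toward CD8 (1.45 to 1.60). Shfm1, the smallest lid subunit, whose symbol lies outside the rule, had 74.6 and 129 RPKM, 1.73-fold toward CD8 (1.59 to 1.88). Its recovered length was 488 bases. Others went the other way. Ddi2 had 12.4 and 8.32 RPKM, 1.50-fold toward CD4 (1.42 to 1.58), and Nfe2l2 had 41.1 and 28.3, 1.45-fold toward CD4 (1.36 to 1.55).

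In the list of 12 class I processing partners, 6 stood above 0 and 6 below with a median of 0.00 (8 and 4 after rescaling to equal sums), none was 2-fold apart, and 4 intervals lay on each side. The 3 highest were H2-K1 at 2007 RPKM in CD4 and 1866 in CD8, B2m, the light chain of class I, at 1380 and 2173, and H2-D1 at 531 and 436. The class I light chain thus stood with Psmb8 and Psmb9 on the CD8 side, also after rescaling to equal sums, and the heavy chains H2-K1 and H2-D1 with Tap1 on the CD4 side.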

How the data were processed

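The members and gene lists were chosen with earlier results of these data known. The authors deposited RPKM, which divide a gene's reads by its length and by the total of its library. TopHat, HTSeq and mm9 are named, without versions, in the submitters' processing notes. Which annotation and strand setting they used, and what was done with multiply mapping reads, is not stated in the labels used here. The 26882 rows of each table named 23167 symbols, of which 2597 recurred with identical values and were used once. Members with pseudogenes or copies in RefSeq, such as Psma5, Psmb5, Psmb6, Psmb7 and Psme2, may share reads with them.

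Genes that reached 1 RPKM in either library were compared on the log2 scale with a pseudocount of 1, which understates differences of low genes, and a log2 difference of 1 or more counted as 2-fold. Folds in the text are ratios of RPKM without it. With 1 library per group there was no test across samples. Whole reads were recovered from steps in the RPKM: all 12735 genes above 0 in both libraries gave whole reads at the printed precision, and 5 of 980 did with the CD8 total moved by 1000 reads. Reads and length are fixed only up to a shared whole-number factor, and the factor that brought the length closest to a GENCODE M21 transcript was used. The length was the smallest possible for 32 of the 47 members. Recovered reads summed to 1.06 times the total in each library, the cause of which was not tested, so some reads may be too high and some intervals too narrow.

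Full values were given for the catalytic and activator genes, the 4 highest and 4 lowest members and the 5 largest differences in each direction, and for other members RPKM alone, with their intervals where the text uses them. Of the listed partners, the 3 highest and any at 2-fold were to be named, and some that this takes are not reported here. Sequences are of GRCm38.p6 and no gene coordinates of the files were converted. Calculations were tested on simulated data and run in Python 3.11.15 with numpy 2.4.6, scipy 1.17.1 and pandas 2.3.3.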

Additional observations from a re-analysis of the deposited data

How the results depend on the processing

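No paired analysis was possible because each cell type had 1 library and no result comes from a test. After both libraries were brought to a sum of 1000000 RPKM, the median of the members was 0.14, with 34 above 0 and 13 below (77% and 23% of compared genes). That of the alpha subunits was -0.0053, of the noncatalytic beta subunits -0.023, of the constitutive catalytic subunits 0.23, of the immunoproteasome subunits -0.21, of the ATPases 0.18, of the other base subunits 0.39, of the lid 0.10, of the regulators 0.27 and of the chaperones 0.078. Centred on the median gene, the constitutive catalytic subunits stood at -0.066 and the regulators at -0.025, and Psmb5, Psmb7, Psme2 and Psme3 changed sign. Against the median gene of the same length class, added after seeing the data, the noncatalytic beta subunits stood at -0.11, the constitutive catalytic subunits at 0.23 and the other base subunits at 0.068. Against the ratio of the median gene, 6 members in place of 11 had an interval on the CD4 side. With 5 RPKM added to each value, Psmb8 over Psmb5 was 5.58 in CD8 in place of 5.90. Of the alternative values for medians, counts and pair ratios, 103 were counted as unchanged and the 19 others are those above. Unchanged pair ratios moved by less than counting error and counts by no more than 1.5 times, but medians could move by more. Centred on the median gene, the immunoproteasome median, that of Psmb9, went from -0.42 to -0.50. The log2 interval of Psmb9 was -0.47 to -0.37. Of the alternative log2 differences of single named members, 84 were unchanged and 29 moved. Centred on the median gene 7 of 19 were unchanged, and rescaled to equal sums 2 of 19. On rescaling Psmb6, Psmb10, Psme1 and Psme4 changed sign. Pseudocounts of 0.1 and 5, no filter, a filter at 5 RPKM, a 99% interval and the smallest possible whole reads, the last added after seeing the data, were the other choices tried. Members with the fewest reads, Psmb11 (23 and 40) and Psmc3ip (77 and 61), are the least precise. Differences between animals, sorts or preparations cannot be told apart from the cell type with 1 library each.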
